A study of Mus musculus with 4 samples.

Results

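The 10 genes described here encode the cell surface receptors of the insulin and insulin-like growth factor (IGF) system, 1 of its ligands and the adaptor proteins that act next to the receptors: Igf1, Insr, Igf1r, Igf2r, Irs1, Irs2, Grb10, Grb14, Gab1 and Gab2. They were matched by symbol, without use of a measured value, but the list was drawn up with earlier results of these data known. They are 10 of the 19938 genes that the array's gene table paired with a probe set of a single gene symbol. Where a gene had more than 1 probe set, the one with the highest mean signal was read, which was a choice for Insr and Irs1 only, since the other 8 had a single probe set.

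Murine erythroleukemia (MEL) cells were compared with ES-EP cells, both mouse, both proliferating, with 2 cultures (A and B) and 1 Affymetrix Mouse Gene 1.0 ST array per culture in each group. MEL is a leukemic erythroid line, here 1 clone (DS19) that stably carried Gata-1 fused to the ligand-binding part of the estrogen receptor (ER). It was grown in DMEM with fetal bovine serum, L-glutamine, penicillin, streptomycin and puromycin, at a lower carbon dioxide level than ES-EP. ES-EP cells are erythroid progenitors that were grown out from embryonic stem cells and are not transformed. Their StemPro34 medium contained erythropoietin (Epogen), human IGF-1, dexamethasone, murine stem cell factor and β-mercaptoethanol. IGF-1, the ligand of the receptor encoded by Igf1r, was thus a named supplement of the ES-EP medium only. What the serum in the MEL medium held of it is not known here. Transformation, the transgene, base medium, serum, antibiotics, carbon dioxide level and each added factor were all joined to cell type, and their contributions cannot be told apart. The arrays read mRNA, and the added human IGF-1 protein is not part of any signal.

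Insulin and IGF-1 bind receptor tyrosine kinases that are close relatives and can pair with each other. The active receptors phosphorylate docking proteins, chiefly those of the IRS family, which recruit phosphatidylinositol 3-kinase (PI3K) and so activate AKT and mTOR and keep FOXO transcription factors out of the nucleus. Proteins of the Gab family are docking proteins as well, but serve cytokine and growth factor receptors of many kinds, whereas Grb10 and Grb14 bind the active insulin and IGF-1 receptors and restrain them. In erythroid progenitors, IGF-1 or insulin is a common supplement of media that support survival and expansion together with erythropoietin, stem cell factor and a glucocorticoid.

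The regulatory adaptor Grb10 had the widest difference of the 10 genes, and RefSeq gives it a pair of transcription starts. The 250 bases before each of these starts are shown, with every CG in capitals, because they differ strongly in sequence. Both are from GRCm38.p6, 5′ to 3′, on the minus strand, the first from chr11:12037421-12037670 and the second from chr11:12027972-12028221. The window of Igf1r (chr7:67952007-67952256, plus strand), a receptor gene that was higher in MEL, and the first of 2 overlapping windows of Gab1 (chr8:80880520-80880769, minus strand), a docking protein gene that was lower in MEL, are shown for comparison.
Grb10, first start: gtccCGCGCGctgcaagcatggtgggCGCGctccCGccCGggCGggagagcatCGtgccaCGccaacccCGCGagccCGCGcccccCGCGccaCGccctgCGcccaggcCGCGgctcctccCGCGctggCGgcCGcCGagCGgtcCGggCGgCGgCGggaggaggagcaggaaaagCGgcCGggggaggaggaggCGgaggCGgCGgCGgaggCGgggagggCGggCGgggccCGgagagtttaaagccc
Grb10, second start: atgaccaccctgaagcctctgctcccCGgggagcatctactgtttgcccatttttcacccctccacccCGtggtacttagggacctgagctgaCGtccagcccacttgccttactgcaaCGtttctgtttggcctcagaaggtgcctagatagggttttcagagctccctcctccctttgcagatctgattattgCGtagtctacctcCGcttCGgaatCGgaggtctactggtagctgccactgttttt
Igf1r: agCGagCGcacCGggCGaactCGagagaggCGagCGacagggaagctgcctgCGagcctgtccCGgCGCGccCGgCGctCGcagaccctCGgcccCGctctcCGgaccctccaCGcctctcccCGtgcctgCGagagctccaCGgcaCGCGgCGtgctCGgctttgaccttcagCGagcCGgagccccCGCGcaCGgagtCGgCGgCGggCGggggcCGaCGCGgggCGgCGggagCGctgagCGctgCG
Gab1, first start: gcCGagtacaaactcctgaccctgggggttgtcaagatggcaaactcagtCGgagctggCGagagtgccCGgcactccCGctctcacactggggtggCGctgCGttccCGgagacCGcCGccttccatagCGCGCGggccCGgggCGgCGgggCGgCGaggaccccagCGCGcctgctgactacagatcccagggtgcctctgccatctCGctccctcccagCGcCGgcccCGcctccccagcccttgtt

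The first window of Grb10 held 40 CG and was 81.2% G and C, while the second held 8 CG and was 54% G and C. Over all 32851 windows of this length in the RefSeq table the median was 6 CG and 52.4% G and C, and 98.7% of windows had fewer CG than the first window and 57.0% fewer than the second. Of the 10 genes 8 were matched in the table, with 10 windows, and Insr and Gab2 were not matched. Igf1r had 42 CG, Irs2 34, Irs1 28, Igf2r 27, Gab1 24 and 25, and Grb14 24. Igf1 had 5 CG, below the median of all windows. Thus CG-rich windows stood before genes that were higher in MEL, lower in MEL and not called. Short motifs were searched on both strands, each counted on its own. AGATAA, 1 form of the GATA site, was in 0 of the 10 windows and in 9.99% of all windows, and other forms were not counted. GAGGAA, a form of the ETS factor site that is longer than its GGAA core, was in 1 window (that of Igf1) and in 23.3% of all. The core GGAA alone was not counted. AGAACA, a glucocorticoid receptor half-site, was in 0 windows and in 16.1% of all. The array signals were not assigned to either start of Grb10.

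Signals are log2 values, and their distance from background was judged against 1027 olfactory receptor genes, which as a group were taken to stand for background. Their 95th percentile in a cell type, called the olfactory level here, was 5.19 for MEL and 5.56 for ES-EP. Their own median difference was -0.20, and 461 of them were called lower in MEL, so a small decrease at this level is not distinct from that of background. The median of all 35557 probe sets was 5.68 and 5.67 in the MEL arrays and 5.81 and 5.84 in the ES-EP arrays. The median difference (MEL minus ES-EP) over all genes was -0.15. After quantile normalization, median centring or cyclic loess that median was -0.03, -0.01 and -0.00. All 9 measured erythroid markers were above the olfactory level in both cell types. Of the 9, 7 were called lower in MEL and 1 higher, against 43.2% and 20.5% of all genes. Their median difference was -0.78. Slc4a1, the anion exchanger of the red cell membrane, averaged 5.87 in MEL and 11.34 in ES-EP (44.3-fold lower in MEL), the membrane protein gene Epb42 was 9.32-fold lower and Alas2, the first enzyme of erythroid heme synthesis, 8.69-fold lower. Gata1, the master factor of the lineage, was the 1 that was higher in MEL, with 12.36 in MEL (which includes any transgene transcript the probes match) and 11.22 in ES-EP, and Epor was not called. Of 8 mast cell markers, 7 were called lower in MEL, against 43.2% of all genes, but only Ms4a2, Hdc and Tpsb2 exceeded the olfactory level in either cell type. The log2 of the list's summed signal, which follows its brightest probe sets, was 8.20 to 8.25 in MEL and 11.45 to 11.58 in ES-EP. Ms4a2, a chain of the IgE receptor, averaged 3.95 in MEL, under the level, and 11.05 in ES-EP. Hdc, the enzyme that makes histamine, averaged 7.31 in MEL and 9.28 in ES-EP, while the defining markers Fcer1a and Cpa3 did not exceed the olfactory level in either. Of 5 measured megakaryocyte markers 4 were called higher in MEL, against 20.5% of all genes, with log2 sums of 10.15 to 10.26 in MEL and 8.57 to 8.59 in ES-EP. Of the 4, Pf4 averaged 8.85 in MEL and 3.89, under the level, in ES-EP, and Itga2b 9.06 in MEL and 6.76 in ES-EP. Gp9 was only 1.21-fold higher, Ppbp lay under the level in both cell types, and Itgb3 went the other way, 3.49-fold lower in MEL. Of 10 neutrophil and macrophage markers, 2 (Prtn3 and Cebpa) were called higher in MEL and 3 lower, against 20.5% and 43.2% of all genes. Only 3 of these 10 exceeded the level in either cell type. The part of such markers in the differences below was not tested, and in these bulk samples fewer cells of a type and less RNA per cell cannot be told apart.

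Of the 10 genes, 7 were called by limma at an adjusted p under 0.05 over all genes, 2 higher in MEL (Insr and Igf1r) and 5 lower (Igf1, Igf2r, Grb10, Gab1 and Gab2). Over all genes, 63.8% were called, 20.5% as higher and 43.2% as lower, so the counts of 7, 2 and 5 of 10 were close to the background of this comparison. After quantile normalization or cyclic loess the counts among the 10 genes were again 2 higher and 5 lower, and after median centring 3 higher and 4 lower, whereas the split over all genes was 4096 higher and 8622 lower as deposited, 5344 and 5974 by quantile normalization, 5757 and 5644 by median centring, and 5676 and 5460 by cyclic loess. The arrays of MEL and ES-EP did not overlap for 9 of the 10 genes, against 81.8% of all genes. A called difference of at least 2-fold was seen for 4 of them, Insr higher in MEL and Grb10, Gab1 and Gab2 lower in MEL, against 10% of all genes (5.72% higher and 4.27% lower). The median absolute log2 difference was 0.67 for the 10 genes and 0.32 for all genes. These shares describe a small, hand-picked list and were not tested.

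**Figure D1:**
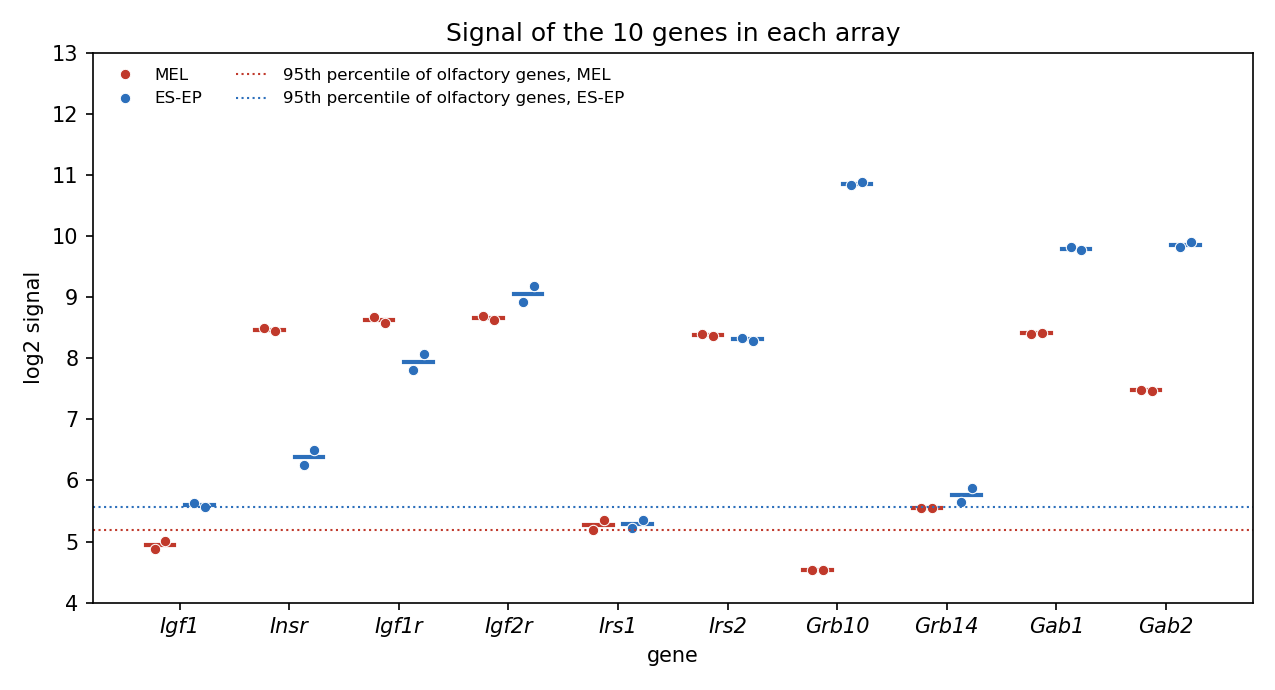
The log2 signal of each of the 10 genes in the 2 MEL arrays (red, left) and the 2 ES-EP arrays (blue, right), with a bar at the mean of each cell type and dotted lines at each cell type's olfactory level, 5.19 for MEL and 5.56 for ES-EP. Grb10 lies under the line in MEL and at 10.83 and 10.89 in ES-EP, Insr is higher in MEL, Gab1 and Gab2 are lower in MEL, and Irs1 lies near the lines in both; heights of different genes are not comparable, since probe sets differ in brightness.

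The 1 ligand among the genes, Igf1, encodes the secreted growth factor that was also supplied as human protein in the ES-EP medium. Its signal was 4.88 and 5.00 in MEL, against 5.63 and 5.56 in ES-EP. The arrays did not overlap, but MEL lay under the olfactory level and the ES-EP mean of 5.59 exceeded it by very little, with 95.4% of olfactory genes below that mean in ES-EP. The difference was -0.65 ± 0.08 (SE, n = 2 each; limma adjusted p = 7.7e-05), and it shrank to -0.40 after cyclic loess, where it was still called. Igf1 message was thus at background in MEL and at its edge in ES-EP.

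Insr encodes the insulin receptor. Its signal was 8.49 and 8.44 in MEL, against 6.25 and 6.51 in ES-EP. Both MEL cultures lay well above both ES-EP cultures, and the signal exceeded the olfactory level in both cell types. Insr was 4.25-fold higher in MEL, a log2 difference of 2.09 ± 0.10 with a 95% interval of 1.87 to 2.30 (limma adjusted p = 2.2e-08), and 3.02% of all genes had a larger absolute difference. A second probe set of Insr gave 7.83 and 7.73 in MEL, against 6.17 and 6.15 in ES-EP, a 3.06-fold difference in the same direction. The call held under all 15 alternative settings, with differences of 1.85 to 2.24.

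Igf1r encodes the receptor for IGF-1, the factor present in the ES-EP medium. Its signal was 8.67 and 8.57 in MEL, against 7.80 and 8.08 in ES-EP. The cultures did not overlap, although the ES-EP arrays differed from each other more than the MEL arrays did. Igf1r was 1.60-fold higher in MEL (log2 difference 0.68 ± 0.10, 95% interval 0.45 to 0.91; limma adjusted p = 0.000206). The log2 ratio of Insr to Igf1r within an array was -0.18 and -0.13 in MEL, against -1.55 and -1.57 in ES-EP. The absolute value of such a ratio depends on the probe sets and cannot be read, but its change can, and it was 2.65-fold in favor of Insr in MEL (1.41 on the log2 scale, 1.37 to 1.44 over the 4 pairs of cultures). Both tyrosine kinase receptors were thus higher in MEL, and by unequal amounts.

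Igf2r, the cation-independent mannose 6-phosphate receptor, sorts lysosomal enzymes and removes IGF-2 from the cell surface, and has no kinase domain. Its signal was 8.70 and 8.63 in MEL, against 8.91 and 9.19 in ES-EP. The groups did not overlap, but the gap between them was no wider than the gap between the ES-EP cultures. The difference of -0.39 ± 0.10 (1.31-fold lower in MEL; limma adjusted p = 0.00622) was not a stable call. It was -0.24 with an adjusted p of 0.0538 after median centring, and -0.36 with an adjusted p of 0.0706 without MEL replicate B. Without ES-EP replicate B it was -0.25 and barely called. Against a minimum change of 1.2-fold it was also lost, with an adjusted p of 0.273.

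The docking proteins of the receptors, Irs1 and Irs2, carry the signal of either receptor to PI3K. Irs2 had a signal of 8.40 and 8.37 in MEL, against 8.34 and 8.29 in ES-EP. It lay well above the olfactory level in both, and the lower MEL value was just above the higher ES-EP value. The difference of 0.07 ± 0.08 had a 95% interval of -0.11 to 0.25, which spans a level in MEL from 1.08-fold lower to 1.19-fold higher (limma adjusted p = 0.465). It was called after median centring alone (0.22, adjusted p = 0.0352). Relative to Irs2 in the same array, Insr was 4.05-fold higher in MEL than in ES-EP.

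Irs1 had a signal of 5.19 and 5.35 in MEL, against 5.23 and 5.35 in ES-EP. The cultures overlapped, and both cell types lay at about the olfactory level, with only the MEL mean of 5.27 above it. The difference was -0.02 ± 0.09 (95% interval -0.22 to 0.18; limma adjusted p = 0.880), and a second probe set read 3.67 and 3.77 in MEL, against 3.82 and 3.72 in ES-EP. Its sign turned after each of the rescalings, without a call. Irs1 was not detectable above background by these probe sets in ES-EP, and in MEL by a small margin only, so the comparison says little about its mRNA. Irs2 was the IRS gene with a clear signal in both cell types.

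**Figure D2:**
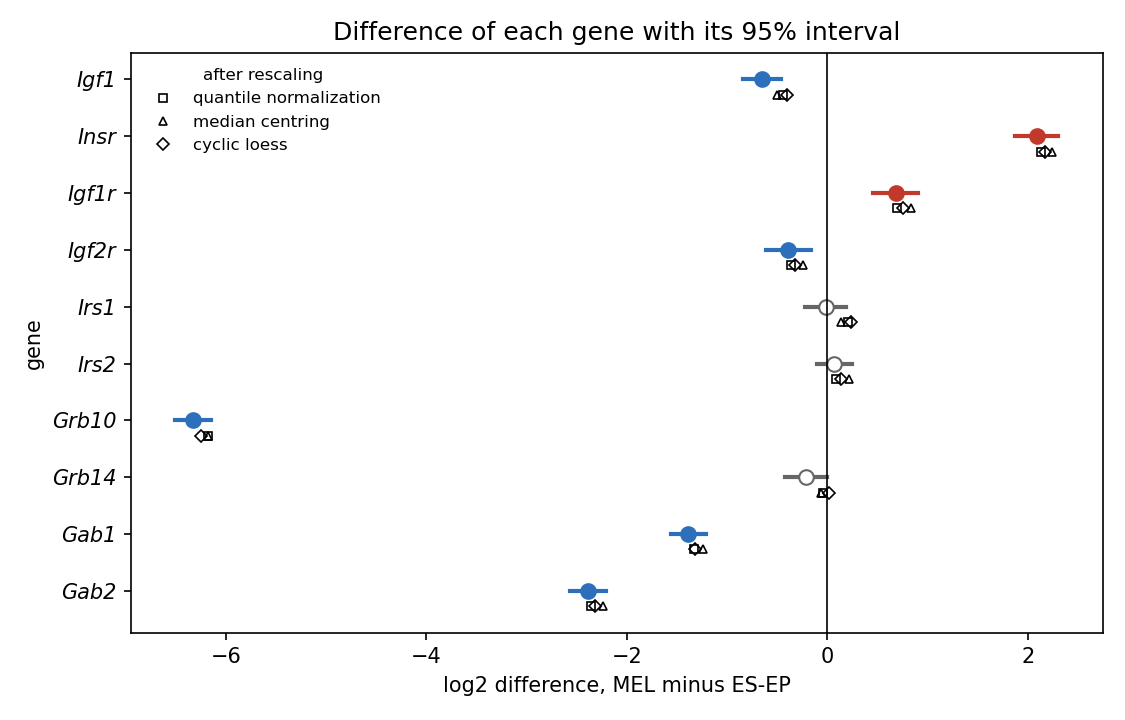
The log2 difference of each gene (MEL minus ES-EP) with its 95% interval from limma, filled where called and open where not, red where higher in MEL and blue where lower. Small open marks give the difference after quantile normalization, median centring and cyclic loess; Grb10 (-6.33), Gab2 (-2.39), Gab1 (-1.39) and Insr (2.09) stay far from 0 in each, and Igf2r, Irs1, Irs2 and Grb14 lie near it.

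Grb10 encodes an adaptor that binds the active insulin and IGF-1 receptors, inhibits their signaling and is stabilized by mTOR. In mouse it is an imprinted gene, read from the maternal allele in most tissues and from the paternal allele in neurons, which the arrays cannot separate. Its signal was 4.53 and 4.54 in MEL, against 10.83 and 10.89 in ES-EP. Each cell type gave nearly identical duplicates, and MEL lay under the olfactory level, with 83.4% of olfactory genes below it. Grb10 mRNA was therefore not detectable above background in MEL and was strongly detected in ES-EP. The difference was -6.33 ± 0.08, with a 95% interval of -6.50 to -6.15 (limma adjusted p = 1.0e-11). As MEL was at background, the difference is best read as a bound. Bounds for genes at background use the olfactory level of the cell type that was at background. Set against that level, here the one of MEL, Grb10 was at least 50.8-fold lower in MEL. Across the 15 alternatives the difference stayed between -6.35 and -6.18 and was always called.

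Grb14, the relative of Grb10 that restrains the insulin receptor in liver and retina, gave 5.54 and 5.54 in MEL, against 5.64 and 5.87 in ES-EP. The values did not overlap but were only slightly above the olfactory level in both cell types. The difference of -0.21 ± 0.09 was not called (limma adjusted p = 0.0668), was called without ES-EP replicate A (-0.33, adjusted p = 0.0168), and was 0.01 after cyclic loess.

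Gab1 encodes a docking protein that recruits PI3K and the phosphatase SHP2 to activated receptors, among them those of erythropoietin and stem cell factor. Its signal was 8.40 and 8.42 in MEL, against 9.82 and 9.77 in ES-EP. The cultures of each type were close to each other and far from those of the other, and the gene was clearly above the olfactory level in both. Gab1 was 2.62-fold lower in MEL (log2 difference -1.39 ± 0.08, 95% interval -1.56 to -1.21; limma adjusted p = 1.2e-07).

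Gab2, its relative, is a main docking protein of hematopoietic cells and is known for signaling from the IgE receptor of mast cells and from KIT, the receptor of stem cell factor. Its signal was 7.49 and 7.46 in MEL, against 9.83 and 9.90 in ES-EP. It was 5.23-fold lower in MEL (log2 difference -2.39 ± 0.08, 95% interval -2.57 to -2.21; limma adjusted p = 1.6e-09), and 2.32% of all genes had a larger absolute difference. The duplicates of each cell type lay close together, and the groups far apart. Relative to Gab1, Gab2 was 2.00-fold lower in MEL than in ES-EP (-1.08 to -0.92 on the log2 scale over the 4 pairs of cultures). Both Gab genes were called under all 15 alternatives. Ms4a2, which encodes a chain of that IgE receptor, was also lower in MEL, as given above, and its part in the Gab2 difference was not tested.

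**Figure D3:**
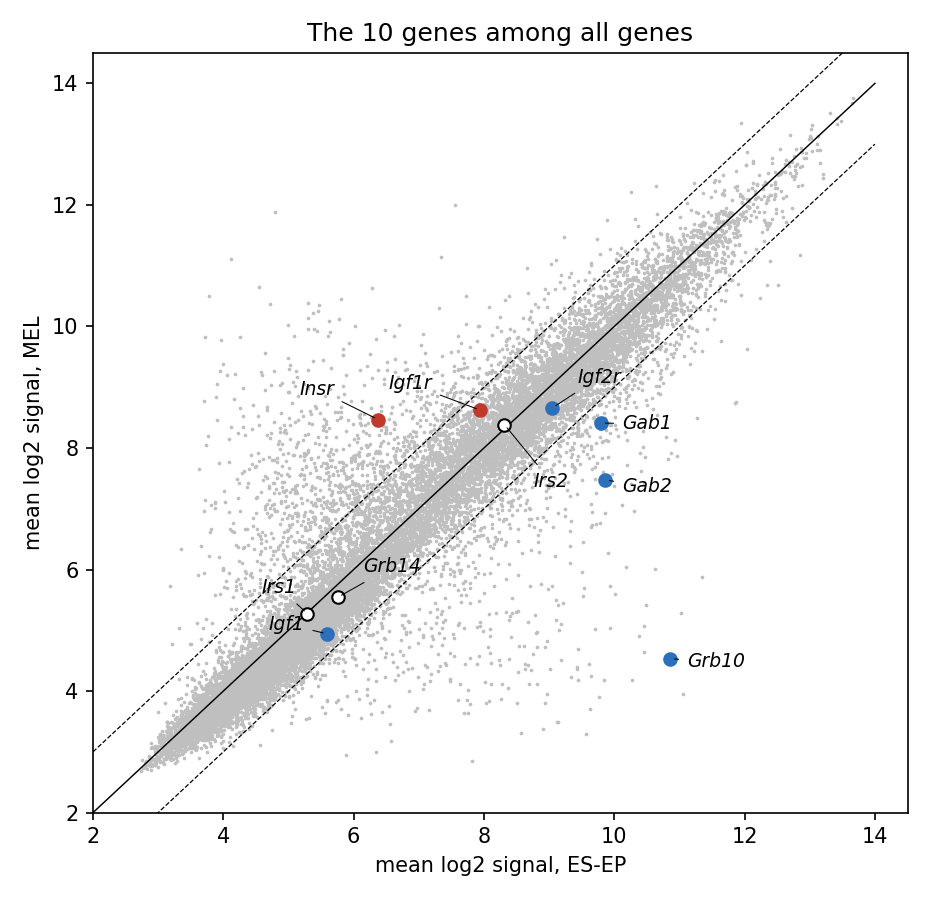
The mean log2 signal of all 19938 genes in MEL (vertical) against ES-EP (horizontal), in gray, with the 10 genes marked: red where called higher in MEL, blue where called lower and open where not called. The solid line marks equal signals and the dashed lines a 2-fold difference; Insr lies above the upper dashed line, Gab1, Gab2 and Grb10 lie below the lower one, and the others lie between them.

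By Euclidean distance over the 4 log2 signals, the genes most like Insr were Ptgr1 (distance 0.16), Kcnk5 (0.17) and Aldh7a1 (0.20), with mean signals of 8.39, 8.51 and 8.60 in MEL, against 6.44, 6.33 and 6.41 in ES-EP. Those most like Grb10 were Gda (0.61), Pdlim1 (0.86) and Ms4a2 (0.90), and each averaged between 3.95 and 4.90 in MEL, against 10.39 to 11.05 in ES-EP. The nearest genes were farther from Grb10 than from Insr. These likenesses rest on 4 arrays and were not tested.

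The other genes of the pathway were described by counts and medians, beside 4096 of 19938 genes called higher, 8622 called lower and a median log2 difference of -0.15 over all genes. Of 11 further ligands and binding proteins 10 were measured, with 2 higher in MEL, 6 lower and a median of -0.27. Most lay near background. Igfbp4, a secreted protein that binds IGFs and limits their access to receptors, read 9.53 and 9.53 in MEL, against 5.92 and 5.76 in ES-EP, a 12.9-fold higher signal in MEL (limma adjusted p = 1.1e-10). Igf2, the other IGF ligand, averaged 4.92 in MEL and 5.60 in ES-EP, so that MEL was at background and ES-EP barely above it. Igfbp7 was 1.44-fold lower in MEL. Igfbp3, with 5.16 in MEL and 5.65 in ES-EP, was called lower, but was at background in MEL and only slightly above the olfactory level in ES-EP. As that level was itself lower in MEL, no minimum fold is given for Igfbp3. Igfbp1 was called higher in MEL, with a mean of 5.40 in MEL and of 4.99, at background, in ES-EP. Its MEL mean was below the ES-EP olfactory level of 5.56, so no minimum fold is given for it either.

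Of 28 further adaptors and docking proteins 27 were measured, with 10 higher in MEL, 4 lower and 13 not called, and a median of 0.15. Among those higher in MEL, Dok2 and Dok3 encode docking proteins of blood cells that recruit negative regulators of RAS and other pathways. Dok2 averaged 8.29 in MEL and 5.88 in ES-EP (5.31-fold higher), and Dok3 was 2.11-fold higher. Insrr, a receptor kinase related to the insulin receptor, averaged 6.45 in MEL and 5.25 in ES-EP, where it was at background, and was called at least 1.86-fold higher. On the other side, Shc1, which links receptors to GRB2 and RAS, was 1.45-fold lower in MEL. Irs3 was 1.26-fold lower at signals near the olfactory level. Grb7 was called lower too, but with 5.11 in MEL it was at background, and with 5.56 in ES-EP at the olfactory level. No minimum fold is therefore given for Grb7. Grb2 itself was not called (9.70 in MEL and 9.52 in ES-EP).

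Of 15 genes for regulators of the receptors, chosen as phosphatases, SOCS proteins, ligases and proteases, 14 were measured, and 3 were higher in MEL, 6 lower and 5 not called, with a median of -0.20. Socs6 (1.55-fold), the phosphatase gene Ptpn1, whose product removes phosphate from the insulin receptor (1.44-fold), and Socs7 (1.30-fold) were higher in MEL. Cish, a feedback inhibitor of cytokine receptors that STAT5 induces, was 3.50-fold lower in MEL. Furin, which cleaves the precursors of both receptor kinases into their mature form and so is no inhibitor, was 1.96-fold lower, and Socs1 was 1.86-fold lower.

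Of 30 genes in the branch from PI3K to mTOR and FOXO 27 were measured, and each exceeded the olfactory level of both cell types. There were 11 higher in MEL, 8 lower and 8 not called, and the median was 0.05. Foxo1 was 3.20-fold higher in MEL (7.39 in MEL and 5.71 in ES-EP), the kinase gene Akt1 2.73-fold (11.76 in MEL and 10.31 in ES-EP) and the leukocyte PI3K subunit gene Pik3cd 2.13-fold. Of the related AKT phosphatase genes, Phlpp2 was 2.00-fold lower in MEL and Phlpp1 1.95-fold higher. Foxo3 was 1.53-fold lower and Rptor, the gene for the Raptor subunit of mTOR complex 1, was 1.45-fold lower. The FOXO genes thus differed in opposite directions. Of 15 genes known to be induced by FOXO factors all 15 were measured, with 4 higher in MEL, 8 lower and 3 not called and a median of -0.24. Bnip3, a mitophagy receptor, was 4.71-fold higher in MEL, Sesn3, a restraint on mTOR, at least 2.31-fold higher (at background in ES-EP) and Txnip, which limits glucose uptake, 1.86-fold. Gadd45a, a stress and cell cycle gene, was 7.01-fold lower in MEL, Trp53inp1 2.52-fold and the catalase gene Cat 2.14-fold. All of these genes also answer to other regulators.

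**Figure D4:**
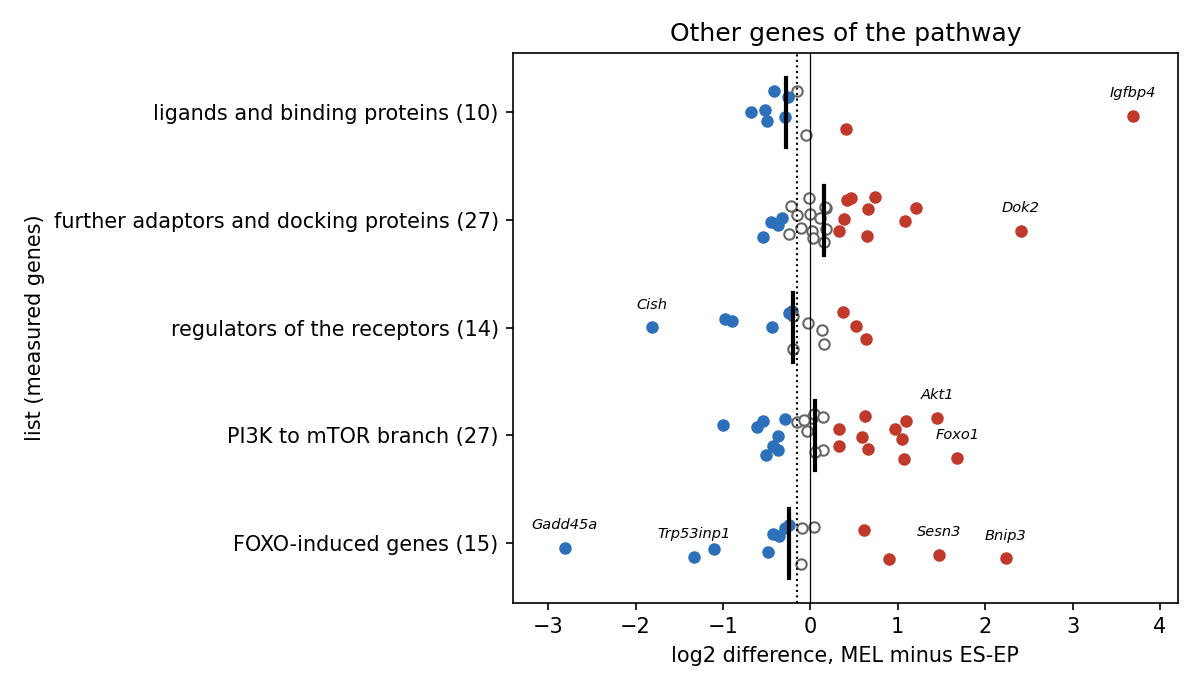
The log2 difference (MEL minus ES-EP) of every measured gene in the 5 lists, filled where called (red higher in MEL, blue lower) and open where not, with a black bar at each list's median and a dotted line at the median of all genes (-0.15). Each list holds called genes on both sides of 0, with Igfbp4 (3.69) and Gadd45a (-2.81) at the ends; vertical position within a list has no meaning.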

How the data were processed

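RNA was isolated with RNeasy from 4 cultures, 2 per cell type, and hybridized to 1 array each. The deposited values are log2 signals, which the authors made in GeneSpring GX (version not given in the sources used here) by RMA. This method subtracts background, brings the arrays to a common distribution and sums up each transcript cluster from its probes. Array medians still differed between cell types, which bears on every small difference. Of 35557 probe sets, 21789 had 1 gene symbol in the array's gene table and were used, 1621 had several and 12147 were unnamed here.

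Differences (MEL minus ES-EP) were tested two-sided with limma 3.58.1 in R 4.3.3 (lmFit and eBayes, 2 residual and 8.2 prior degrees of freedom), with Benjamini-Hochberg adjustment over all 19938 genes at 0.05. Exact permutation of 2 against 2 arrays cannot go below p = 0.333. P-values measure only the spread between these cultures, which may be technical, and the number of arrays limits the precision. Duplicates correlated at 0.998 over genes in each cell type. Before use, the fit was tested on simulated data in which 19738 of 19938 genes were unchanged, and it called 12 of the unchanged genes. In the real comparison most genes were called, so that test does not speak for this setting.

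The genes and all lists were chosen with earlier results of these data known. Named genes were the 10 genes, the 3 genes nearest to Insr and to Grb10, and markers. From each list, up to 3 called genes per direction were named, with the largest differences among those above the olfactory level where they were higher. Phlpp1, Grb2 and genes next to Grb10, Insr and Gab2 were named outside this rule. Promoter windows are RefSeq sequences of GRCm38.p6. Alternatives were 3 rescalings, 2 filters on low signal, averaging the probe sets of a gene, fitting every probe set, a replicate block, a trended robust fit, Holm adjustment, a 1.2-fold minimum, and leaving out each array.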

Additional observations from a re-analysis of the deposited data

How the results depend on the processing

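Insr, Grb10, Gab1 and Gab2 were called in the same direction under all 15 alternatives. Igf1 and Igf1r lost their calls under Holm adjustment only (adjusted p = 0.237 and 0.746). Igf2r lost its call there too (adjusted p = 1) and under 3 others given above, so that Holm left 1 of the 10 genes higher in MEL and 3 lower. Among all genes, Holm left 1484 higher and 1353 lower, a 1.2-fold minimum 2488 and 3903, median centring 5644 lower, cyclic loess 5460 lower and the filter at the median signal 3876 lower. That filter also removed Igf1, Irs1 and Grb14. Calls in the ligand list (8) became 5 with quantile normalization, 5 with cyclic loess, 1 with the median filter, 1 with Holm, 4 with the 1.2-fold minimum and 5 to 7 with an array left out. Further adaptors (14) became 9 with the median filter, 3 with Holm and 8 with the 1.2-fold minimum, receptor regulators (9) became 3 with Holm and 5 with the minimum, and the PI3K (19) and FOXO (12) lists became 6 each with Holm. The uncalled Irs1 difference turned to 0.20, 0.13 and 0.23 with quantile normalization, median centring and cyclic loess and was -0.10 to 0.064 with an array left out, and that of Grb14 was 0.014 with cyclic loess; the cause was not tested. A replicate block by culture letter gave 4093 genes higher and 8616 lower and changed no call among the 10 genes; same-lettered arrays did not deviate together (r = -0.0357), so the letters are not shown to pair cultures.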

Other observations

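The genes next to Grb10 in the GRCm38.p6 gene order, chosen after its values were seen, differed far less than Grb10 did. Fignl1, which encodes an ATPase of DNA repair, had signals of 9.06 and 8.94 in MEL, against 10.11 and 10.25 in ES-EP and was 2.26-fold lower in MEL (limma adjusted p = 1.2e-06). Ddc, between it and Grb10, was under the olfactory level in both cell types (4.41 in MEL and 4.70 in ES-EP), as was Vstm2a (4.64 in MEL and 5.01 in ES-EP), and Cobl was not called (difference -0.25, adjusted p = 0.0617). Next to Insr, which was higher in MEL, Arhgef18 was 2.73-fold lower in MEL, with 5.90 in MEL and 7.35 in ES-EP, and Pex11g, the gene after it, was 1.21-fold higher in MEL (limma adjusted p = 0.0346). Next to Gab2, Nars2 was 1.98-fold lower in MEL, while Usp35 averaged 5.40 in MEL and 5.02, at background, in ES-EP.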
